A study of Mus musculus with 6 samples.

Results

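Clustered histone genes encode the linker histone H1 and the core histones H2A, H2B, H3 and H4, and they were taken here by their symbols: H1f, H2ac, H2bc, H3c or H4c followed by a number. Of the 22180 genes with a probe set of their own on the arrays, 29 have such a symbol. They comprise 8 H1, 6 H2A, 8 H2B and 7 H4 genes, and 0 H3 genes, because every probe set annotated with a clustered H3 gene names several genes. The reference annotation puts 21 of the 29 on chromosome 13, 5 on chromosome 3, 2 on chromosome 6 and 1 on chromosome 15. H1f10, made throughout the cell cycle, and the germ-line H1f6, H1f7 and H1f8 carry the same symbols and are counted in.

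In dividing cells most of these genes are switched on together in S phase, when new DNA has to be wrapped into nucleosomes. Each nucleosome is built from pairs of H2A, H2B, H3 and H4, and H1 binds the DNA between nucleosomes. Their mRNAs end in a stem-loop instead of a poly(A) tail, and they are destroyed when replication stops. In adipose tissue, cells of the stromal vascular fraction (SVF) divide while mature adipocytes rarely do, so histone mRNA is commonly read as a sign of replicating stromal cells.

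The SVF, which holds the cells that remain after mature adipocytes float off a collagenase digest, came from gonadal white adipose tissue (gWAT) of C57Bl/6 mice. CL316243 (CL), a β3-adrenergic agonist, was injected intraperitoneally at 1 mg per kg in 0.1 ml each day for 3 samples, and the mice of 3 control samples received vehicle. The labels give 3 days of treatment and an age of 8 weeks, whereas the methods of the study give other lengths of treatment and ages for related experiments, and it stays unsettled which of them holds for these arrays. Each RNA sample was hybridised to 1 Affymetrix Mouse Gene 2.0 ST array, and all values below are log2 levels made by RMA, which corrects background, equalises the arrays and combines the probes of a probe set.

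A level of 3.59, under which 95% of the genes for olfactory and vomeronasal receptors lie, was used as background. By their mean over the 6 arrays, 13 of the 29 histone genes lay above it and 16 below, where a probe set cannot be told from one whose gene is silent. Array medians over all probe sets were 3.74 to 3.80 with CL and 3.84 to 3.90 with vehicle. Markers of progenitors (4 of 4 measured), endothelium (5 of 5) and macrophages (5 of 5) were above background, and so were 3 of 4 mature adipocyte markers. In bulk RNA, fewer cells of a kind and less RNA per cell cannot be told apart.

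The 200 bases before the start site are shown for H1f2, the gene with the largest difference, for H1f5, the gene with the widest spread among the CL arrays, and for H2bc3 and H4c12, the H2B and H4 genes with the largest differences above background, which ran in opposite directions. They are RefSeq sequences of GRCm38.p6, on chromosome 13 in every case: H1f2 on the plus strand at chr13:23738607-23738806, H1f5 on the minus strand at chr13:21780626-21780825, H2bc3 on the plus strand at chr13:23746534-23746733 and H4c12 on the minus strand at chr13:21750554-21750753. Capitals mark matches on either strand to CCAAT, the box bound by factor NF-Y, to TATAAA, a form of the TATA box, to ATGCAAAT, the octamer known from H2B promoters, and to AAACACA, an element known from H1 promoters. No marked matches overlap.
H1f2: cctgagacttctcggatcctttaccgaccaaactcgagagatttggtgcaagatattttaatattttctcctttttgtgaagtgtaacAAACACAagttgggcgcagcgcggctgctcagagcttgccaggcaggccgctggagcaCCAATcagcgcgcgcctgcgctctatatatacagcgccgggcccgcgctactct
H1f5: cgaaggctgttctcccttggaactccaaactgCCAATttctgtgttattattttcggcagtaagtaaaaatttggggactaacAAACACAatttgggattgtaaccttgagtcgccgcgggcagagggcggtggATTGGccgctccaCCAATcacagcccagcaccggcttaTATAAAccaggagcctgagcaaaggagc
H2bc3: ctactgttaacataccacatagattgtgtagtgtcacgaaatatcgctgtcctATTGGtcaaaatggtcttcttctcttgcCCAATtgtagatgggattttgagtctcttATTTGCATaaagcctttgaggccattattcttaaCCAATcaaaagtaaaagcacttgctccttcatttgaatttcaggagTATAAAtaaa
H4c12: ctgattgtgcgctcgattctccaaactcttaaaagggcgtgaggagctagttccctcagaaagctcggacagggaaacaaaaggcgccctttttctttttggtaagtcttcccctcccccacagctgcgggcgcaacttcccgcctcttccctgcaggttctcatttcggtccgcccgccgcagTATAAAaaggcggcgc

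H1f2 holds CCAAT with its first base 54 bases before the start and AAACACA 112 bases before it, and H1f5 holds both of these with TATAAA besides. H2bc3 holds the octamer 90 bases before its start, on the opposite strand, as well as CCAAT at 3 places. It also holds TATAAA, with its first base 10 bases before the start. In H4c12 TATAAA was the only match. From 250 bases before to 50 after the start, 27 of the 29 genes have a sequence in the reference table. CCAAT was found in 20 of these 27 (74.1%), against 37.9% of all 27025 promoters in the table, and it was in 6 of 8 H1, 6 of 6 H2A and 7 of 7 H2B promoters but 1 of 6 H4 promoters. The octamer was in 8 of 27 (29.6%), against 1.75% of all promoters, namely in 5 of 7 H2B and 3 of 6 H2A promoters and in 0 of 8 H1 and 0 of 6 H4 promoters. TATAAA was in 16 of 27 (59.3%), against 14.2% of all, and AAACACA, searched after the values were known, in 7 of 27 (25.9%), against 7.14% of all, 4 of them H1 promoters. The windows of H2ac12 and H2bc12 overlap on opposite strands, and so do those of H2ac1 and H2bc1. In each pair the octamer counted for the H2A gene is the same stretch of bases as that of the H2B gene. Matches to the other motifs are shared in these windows in the same way, so the counts are of genes, not of separate stretches of DNA. A match is a string of letters and was not tested as a binding site.

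Whether CL raised histone mRNA in the SVF of gWAT was asked gene by gene. After CL, 0 of the 29 genes were higher and 0 were lower at an adjusted p under 0.05 (limma, Benjamini-Hochberg over all 22180 genes), where 0.198% of all genes were called higher and 0.126% lower. With an unadjusted p below 0.05, 3 of the histone genes were higher (H1f2, H2bc3 and H2bc1), against 9.4% of all genes, and 1 was lower (H2bc22), against 5.38% of all genes. Every CL array was above every vehicle array for the same 3 genes, and the reverse held for 0 members, where 11.2% and 8.72% of all genes were separated in these directions. The share of histone genes that were higher was thus close to that of all genes by either measure. The mean was higher with CL for 17 members and lower for 12, and the median log2 fold change was 0.07, against 0.00 over all genes. Without CL replicate 1 the counts were 10 and 19 with a median of −0.06, and without vehicle replicate 1 they were 14 and 15 with a median of −0.02. With 3 arrays in each group, an exact permutation test of a single gene cannot give a two-sided p below 0.1.

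**Figure D1:**
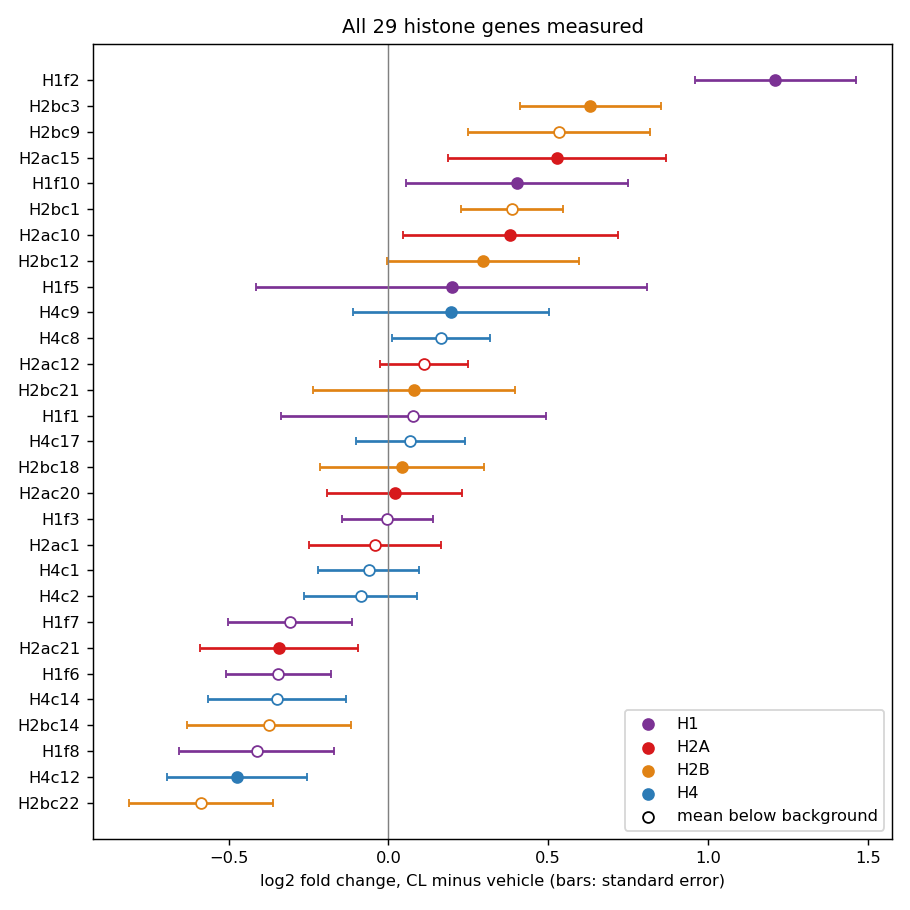
Log2 fold change, CL minus vehicle, of the 29 histone genes with a probe set of their own (points; bars, standard error from limma; n = 3 arrays a group), coloured by family, with open points for genes whose mean lay below background. H1f2 stands at 1.21 and the others lie between −0.59 and 0.63.

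H1f2, which encodes a linker histone of dividing cells, showed the largest difference. Its levels were 7.23, 7.45 and 7.11 in CL-treated mice, against 6.48, 6.22 and 5.45 in vehicle-treated mice. The groups did not overlap, and the lowest CL array was above the highest vehicle array. The log2 fold change was 1.21 ± 0.25 (SE, n = 3 a group), or 2.32-fold, with a 95% interval of 0.64 to 1.78, and the adjusted p was 0.0866 (limma). By the methods' t-test, without adjustment, H1f2 was the only histone gene higher with p below 0.05.

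H1f5 encodes another replication-linked H1, and its CL arrays were spread far more widely. It stood at 9.55, 7.68 and 6.53 with CL, against 7.74, 7.91 and 7.53 with vehicle. The CL group thus held both the highest and the lowest of the 6 values. The log2 fold change was 0.20 ± 0.61 (SE, adjusted p = 0.921, limma), with an interval of −1.19 to 1.58, and it turned to −0.62 without CL replicate 1. H1f10 measured 4.23, 4.24 and 4.99 with CL and 4.12, 3.35 and 4.78 with vehicle, a log2 fold change of 0.40 ± 0.35 (adjusted p = 0.655). The groups overlapped, and single arrays moved the value to 0.037 (without vehicle replicate 2), 0.15 (without CL replicate 3) or 0.75 (without vehicle replicate 3). The other 5 H1 genes, among them the oocyte H1f8 and the testis H1f6 and H1f7, had means below background and log2 fold changes of −0.41 to 0.08. Markers of germ cells, 4 measured, were all below background as well. Over the 8 H1 genes the median was 0.04, and over the 3 above background it was 0.40.

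H2A genes encode partners of H2B in the nucleosome. H2ac15 measured 7.43, 6.35 and 5.94 in CL-treated SVF and 5.76, 6.27 and 6.11 in vehicle-treated SVF. Only CL replicates 1 and 2 exceeded all vehicle arrays, and the log2 fold change was 0.53 ± 0.34 (SE, adjusted p = 0.530, limma), or 0.097 without CL replicate 1. H2ac10 measured 7.85, 6.65 and 6.43 with CL and 6.87, 6.45 and 6.47 with vehicle. CL replicate 1 was more than a log2 unit above any other CL array, and the log2 fold change of 0.38 ± 0.34 (adjusted p = 0.663) became −0.06 without it. H2ac21, on chromosome 3, went the other way, with 5.96, 5.35 and 4.98 in CL-treated mice and 6.03, 5.59 and 5.68 in vehicle-treated mice. Its log2 fold change was −0.34 ± 0.25 (adjusted p = 0.580), or −0.61 without CL replicate 1, −0.21 without vehicle replicate 1 and −0.12 without CL replicate 3. A second probe set of H2ac21, with a mean of 3.12 and so below background, gave 0.14. H2ac20, also on chromosome 3, gave 0.02, and the 2 H2A genes below background, one of them the testis gene H2ac1, gave −0.04 and 0.11. The median of the 6 was 0.07.

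H2B genes had a median of 0.19, both over all 8 and over the 4 above background. H2bc3 stood at 6.48, 5.73 and 5.90 with CL, against 5.69, 5.27 and 5.25 with vehicle. The groups were separate by a narrow margin, since CL replicate 2 was barely above vehicle replicate 1. The log2 fold change was 0.63 ± 0.22 (SE, adjusted p = 0.234, limma), or 1.55-fold, and 0.41 without CL replicate 1. H2bc12 measured 5.78, 4.70 and 5.58 in CL-treated mice and 4.66, 5.03 and 5.48 in vehicle-treated mice, a log2 fold change of 0.30 ± 0.30 (adjusted p = 0.712) between overlapping groups. It was 0.081 without CL replicate 1, 0.099 without vehicle replicate 1, 0.18 without CL replicate 3, 0.51 without vehicle replicate 3 and 0.62 without CL replicate 2. H2bc18, on chromosome 3, measured 5.65, 4.56 and 4.87 with CL and 4.85, 5.10 and 5.01 with vehicle. CL replicate 1 was its highest array and CL replicate 2 its lowest, and the fold change of 0.04 ± 0.26 (adjusted p = 0.962) changed sign under quantile normalization (−0.03) and cyclic loess (−0.02). H2bc21, whose mean was close to background, gave 0.08. The 4 H2B genes below background had log2 fold changes of −0.59 (H2bc22), −0.37 (H2bc14), 0.39 (H2bc1, a testis gene) and 0.53 (H2bc9). H2bc1 and H2bc22 are thus separated or called at the unadjusted p only at levels where the arrays do not tell a gene from background.

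H4 genes encode nearly the same protein from many loci. H4c12 measured 9.36, 9.02 and 8.61 in CL-treated SVF and 9.41, 9.76 and 9.24 in vehicle-treated SVF. Its mean was lower with CL, by a log2 fold change of −0.47 ± 0.22 (SE, adjusted p = 0.365, limma, interval −0.97 to 0.02), while CL replicate 1 lay within the vehicle range. It was −0.28 without CL replicate 3. H4c9 measured 4.90, 4.49 and 4.49 with CL and 3.91, 4.19 and 5.19 with vehicle. Vehicle arrays were both its highest and its lowest, and the log2 fold change was 0.20 ± 0.31 (adjusted p = 0.827), or −0.07 without vehicle replicate 1. H4c14, on chromosome 3 and below background, measured 3.02, 3.67 and 2.89 with CL and 3.69, 3.57 and 3.37 with vehicle, a log2 fold change of −0.35 ± 0.22 (adjusted p = 0.510). The other 4 H4 genes lay below background, between −0.09 and 0.17. The median of the family was −0.06, and 0.01 after quantile normalization of the arrays. Differences between the families were not tested.

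**Figure D2:**
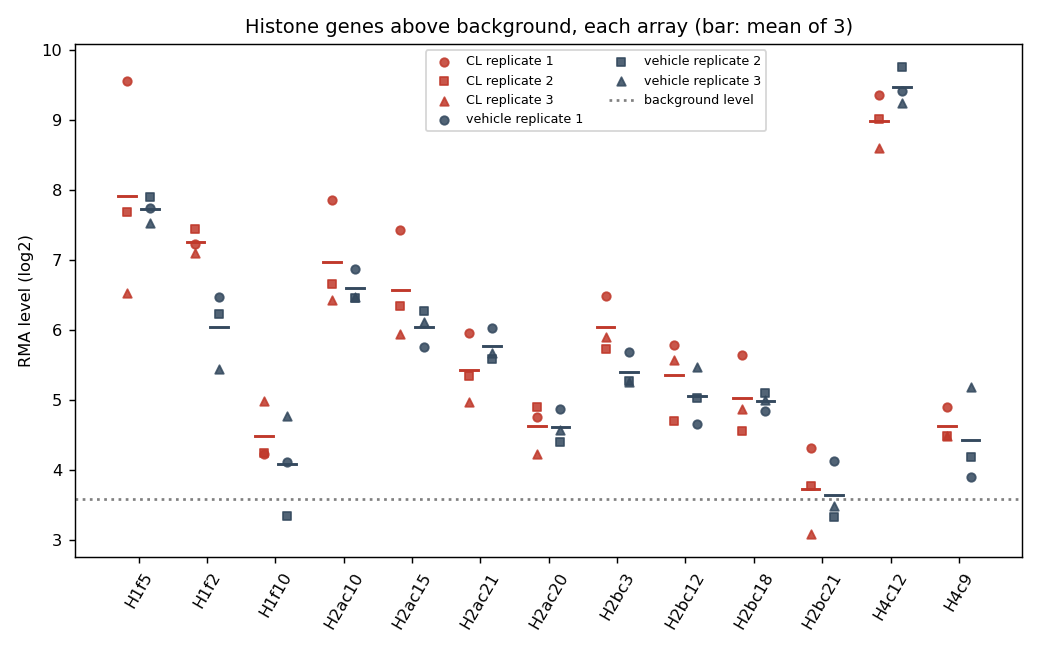
RMA levels (log2) of the 13 histone genes above background on each of the 6 arrays, CL in red and vehicle in blue, with a symbol for each replicate number and a bar for the mean of 3. H1f2 and H2bc3 show separate groups. For H1f5, H2ac10 and H2ac15 CL replicate 1 (circle) stands far above the other CL arrays.

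The 13 genes above background were therefore set out array by array. Their mean level was 6.42, 5.76 and 5.60 on the CL arrays, against 5.73, 5.61 and 5.71 on the vehicle arrays. CL replicate 1 was high, while the other CL arrays lay about where the vehicle arrays did. CL replicate 1 was the highest array for 7 of the 13 genes (53.8%), and CL replicate 3 was the lowest for 6 (46.2%), where the same arrays were highest for 12.8% and lowest for 12.4% of all 13383 genes above background. The 13 genes had a median log2 fold change of 0.20, with 11 higher and 2 lower in mean, against 0.07 over all genes above background, and after quantile normalization or cyclic loess 9 were higher and 4 lower. Without CL replicate 1 the median was −0.05, with 6 higher and 7 lower, while that of all genes above background was 0.09. Leaving out another array gave medians of 0.10 to 0.32. The 16 genes below background had a median of −0.05. By chromosome, the median was 0.11 over the 21 genes on chromosome 13 and 0.02 over the 5 on chromosome 3.

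Genes that act beside the histones in S phase and mitosis were read from the same arrays. Of 41 DNA replication genes, 0 were called either way after adjustment, and the median log2 fold change was 0.36. By unadjusted p, 14 were higher and 0 lower, against 9.4% and 5.38% of all genes. The mean level of the 41 was 5.73, 5.45 and 5.40 with CL and 5.28, 5.13 and 5.29 with vehicle. Each CL array was above each vehicle array here, which was not so for the histone genes, although CL replicate 1 was again the highest, in 21 of the 41 genes. Pcna, the sliding clamp of the replication fork, measured 9.11, 8.96 and 8.87 with CL and 9.45, 9.03 and 9.12 with vehicle, a log2 fold change of −0.22 ± 0.16 (adjusted p = 0.586, limma). Rpa3, a subunit of the complex that binds single-stranded DNA, gave 0.43 ± 0.25 (adjusted p = 0.489).

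Of 41 mitosis genes, 40 had a higher mean with CL, 0 were called after adjustment, and the median was 0.62. By unadjusted p, 21 were higher and 0 lower, against 9.4% and 5.38% of all genes. The mean level of the 41 was 5.78, 5.20 and 5.04 with CL and 4.78, 4.55 and 4.90 with vehicle. CL replicate 1 was the highest array for 38 of the 41. Mki67, the proliferation antigen Ki-67, measured 7.54, 6.67 and 6.40 with CL and 6.04, 5.74 and 6.84 with vehicle (log2 fold change 0.67 ± 0.34, adjusted p = 0.419, limma), or 0.33 without CL replicate 1. Smc4, a condensin subunit that compacts mitotic chromosomes, measured 7.93, 7.86 and 7.95 with CL and 7.57, 7.58 and 7.41 with vehicle (0.40 ± 0.13, adjusted p = 0.218), so its groups did not overlap. Without CL replicate 1 the medians were 0.35 for mitosis and 0.21 for replication genes. The difference between these lists and the histone genes was not tested.

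**Figure D3:**
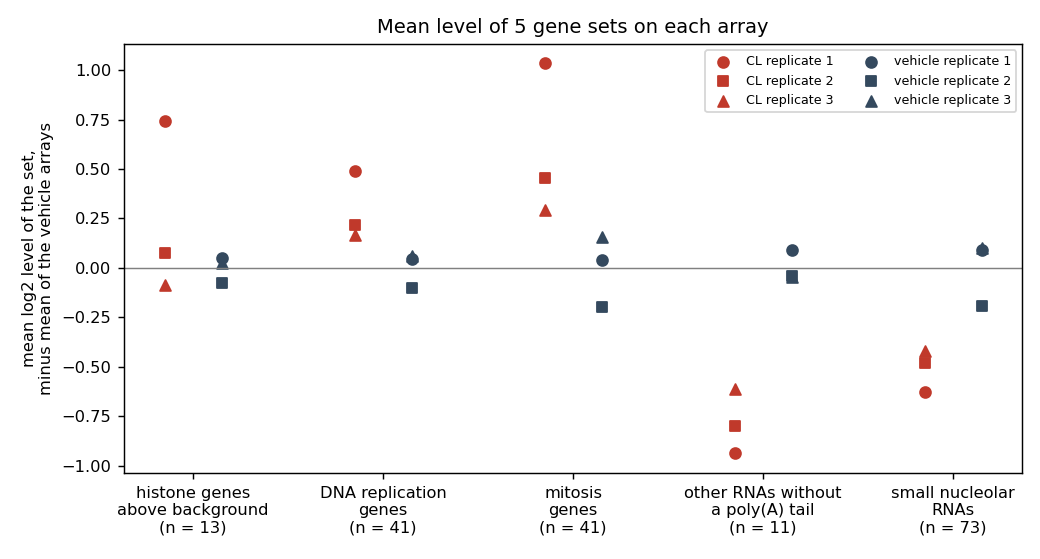
Mean log2 level of 5 gene sets on each array, minus the mean of the vehicle arrays (CL red, vehicle blue, a symbol for each replicate number). For the 13 histone genes only CL replicate 1 stands apart from vehicle, whereas all 3 CL arrays lie above vehicle for replication and mitosis genes and below it for the RNAs without a poly(A) tail and the small nucleolar RNAs.

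Histone mRNA has no poly(A) tail, so other RNAs without one were read beside it. Of 11 such RNAs, 10 had a lower mean with CL, 0 were called after adjustment, and the median log2 fold change was −0.73. By unadjusted p, 9 were lower and 0 higher, against 5.38% and 9.4% of all genes. The mean level of the 11 was 7.10, 7.24 and 7.43 with CL and 8.13, 8.00 and 7.99 with vehicle, with every CL array below every vehicle array. Rpph1, the RNA of ribonuclease P, measured 11.18, 10.85 and 11.32 with CL and 12.00, 12.02 and 12.07 with vehicle (−0.91 ± 0.16, adjusted p = 0.062, limma). It passed the threshold with a mean-variance trend (adjusted p = 0.0130), with trend and robust moderation (0.0127) and among genes above the median level (0.0427). Rn7sk, the 7SK RNA that holds back an elongation factor, gave −0.49 ± 0.14 (adjusted p = 0.169). Of 73 small nucleolar RNAs, 4 were called lower and 0 higher, against 0.126% and 0.198% of all genes, with a median of −0.53. The part of these values in the histone levels was not tested.

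Histone variants, which replace the clustered histones in chromatin and whose mRNAs mostly carry a poly(A) tail, had 9 of 12 genes measured. Of the 9, 0 were called, and the median was 0.15. By unadjusted p, 3 were higher and 0 lower, against 9.4% and 5.38% of all genes. H2az2, which encodes a form of H2A.Z, measured 9.12, 9.30 and 8.75 with CL and 8.58, 8.09 and 8.08 with vehicle (0.81 ± 0.20, adjusted p = 0.129, limma). H2ax, whose protein is phosphorylated at DNA breaks and whose mRNA occurs in both forms, measured 8.66, 8.55 and 8.68 with CL and 8.27, 7.36 and 7.73 with vehicle (0.84 ± 0.22, adjusted p = 0.142). In both genes every CL array was above every vehicle array. This held for 3 of the 9 variants, and the reverse for 1 (H2ab1, −0.34), against 11.2% and 8.72% of all genes. The other H2A.Z gene, H2az1, gave −0.03 with overlapping groups. Among 19 of 21 factors that make histone mRNA, 0 were called. By unadjusted p, 2 of the 19 were higher, close to the 9.4% of all genes, and 0 were lower. The median of these factors was 0.06, and it became −0.035 after quantile normalization and −0.048 after cyclic loess. Slbp, which binds the stem-loop, gave −0.06 ± 0.14 (adjusted p = 0.879), and Npat, the activator of histone genes in S phase, gave 0.09 ± 0.15 (adjusted p = 0.828), with −0.023 under quantile normalization and −0.0087 under cyclic loess. Of 22 histone chaperones measured, which carry histones to DNA, 0 were called, and the median was 0.14. By unadjusted p, 5 were higher and 1 lower, against 9.4% and 5.38% of all genes.

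Many histone genes are so alike that a probe set answers to several of them, and these probe sets hold the H3 genes. In all, 38 probe sets name several genes with a clustered histone among them, and 3 pairs of these carry identical values, which leaves 35 distinct ones. Each was tested in a fit of every probe set of the array by itself, in which 0% of 41345 were called after adjustment. Of the 35, 0 were called either, while 4 were higher and 0 lower by unadjusted p, against 6.28% and 6.33% of all probe sets, and 3 passed the methods' t-test without adjustment, against 10.8% of all. Groups did not overlap for 5 that were higher with CL, against 8.67% of all probe sets, and for 1 that was lower, against 9.96%. Of those higher, probe sets 17291019 (mean 2.96) and 17285821 (2.32) lay below background, and so did the one that was lower (17285842, 2.46). Probe set 17291019 is also among the 4 that were higher by unadjusted p. Among the 17 above background, the mean was higher with CL in 13 and lower in 4, or in 14 and 3 under each other scaling, with a median log2 fold change of 0.25 and a range of −0.44 to 1.37. The median over every probe set of the array was −0.03, and 0.08 after median centring. These values are for sets of genes, and which gene of a set they come from cannot be told apart.

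For H2B, 6 of 6 shared probe sets above background had a higher mean with CL as deposited and under each of 3 other scalings, with a median of 0.36. Probe set 17285834, an H2B probe set that names 3 genes, measured 6.74, 6.72 and 6.39 with CL and 4.63, 4.88 and 6.23 with vehicle. Vehicle replicate 3 lay close to the CL arrays and the others far below, and the log2 fold change was 1.37 ± 0.41 (SE, adjusted p = 0.267, limma). Probe set 17285851, an H2B probe set that names 3 genes, measured 9.26, 9.04 and 9.14 with CL and 8.63, 8.79 and 8.90 with vehicle (0.38 ± 0.14, adjusted p = 0.357). In the remaining H2B probe sets above background CL replicate 1 was the highest array, and CL replicates 2 and 3 lay within the vehicle range. Probe set 17290997, for example, measured 11.04, 10.32 and 10.42 with CL and 10.46, 10.06 and 10.68 with vehicle. For H2A, 4 of 5 above background were higher in mean, or 5 of 5 under each other scaling, with a median of 0.35. Of these, probe set 17285867 had the largest log2 fold change (0.74) and a vehicle mean of 3.48, below background. It passed that level only through its CL mean of 4.22, so its count as higher is partly set by the filter. It is also among the 17 probe sets counted above background. Probe set 17400545, an H2A probe set that names 3 genes, measured 10.24, 10.33 and 10.45 with CL and 10.04, 10.05 and 9.82 with vehicle (0.37 ± 0.14, adjusted p = 0.355). In probe sets 17285851 and 17400545 the groups were separate with little spread on either side, and CL replicate 1 lay close to the other CL arrays.

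H3 had 12 shared probe sets, of which 4 lay above background, 3 of them with a higher mean with CL, and the median of the 4 was 0.09, or 0.20 after median centring and 0.16 after quantile normalization. Probe set 17400555, an H3 probe set that names 8 genes, measured 8.07, 7.87 and 8.10 with CL and 8.08, 7.23 and 7.90 with vehicle, a log2 fold change of 0.28 ± 0.24 (SE, adjusted p = 0.690, limma). Vehicle replicate 1 was as high as the CL arrays. The single shared H4 probe set above background gave −0.16 ± 0.30 (SE, adjusted p = 0.871, limma) with overlapping groups. Its mean, like that of H4c12, was lower with CL, while CL replicate 1 was its highest array. Below background, with a mean of 2.96, H4 probe set 17291019 ran the other way with separate groups (0.64 ± 0.17, adjusted p = 0.233).

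**Figure D4:**
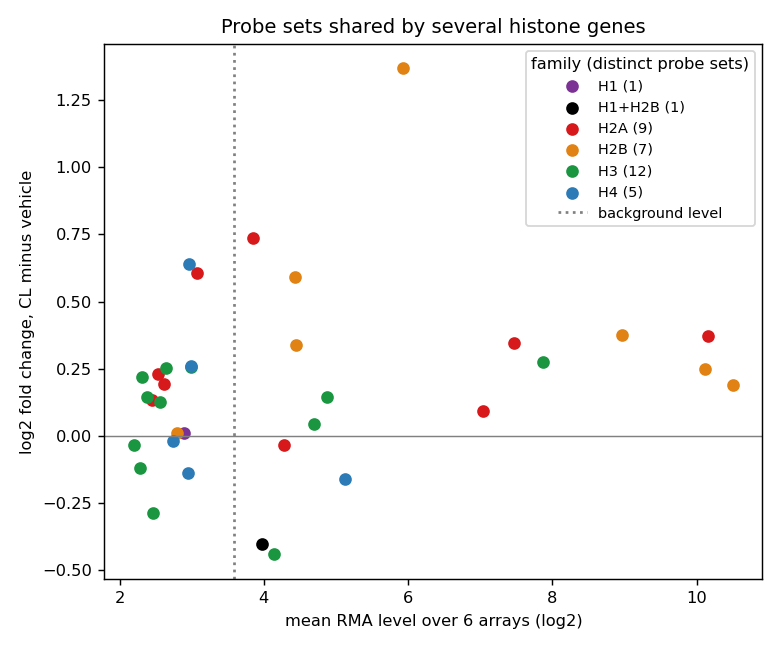
Log2 fold change, CL minus vehicle, against the mean level over the 6 arrays (log2) of the 35 distinct probe sets that name several genes with a clustered histone among them, coloured by family, with the background level of 3.59 dotted. To the right of that level, all 6 H2B points lie above 0 and the single H4 point lies below it.

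For other kinds of cells, marker levels differed in part with treatment. Markers of mast cells had 2 of 5 genes called higher and those of mural cells 1 of 5 (Acta2), against 0.198% of all genes. Among the mast cell markers, Kit overlapped between the groups (0.51, adjusted p = 0.577, limma), and Ms4a2 lay below background. The mural Rgs5 ran opposite to Acta2 (−0.59, adjusted p = 0.218, limma) with separate groups. For endothelium 5 of 5 markers had a lower mean with CL, 3 of them with an unadjusted p below 0.05, and the median was −0.53. In all, 0 markers were called for progenitors, endothelium, macrophages, T cells, B cells, neutrophils, erythroid cells, mature adipocytes, mesothelium and germ cells. By unadjusted p, where 9.4% of all genes were higher and 5.38% lower, some of these differed. Adipoq (1.24) and Plin1 (1.44), 2 of 4 mature adipocyte markers, were higher with separate groups. Cidec had a lower mean, and so had Lep, which lay below background. S100a8 (−1.43) and S100a9 (−0.77), 2 of 5 neutrophil markers, were lower with separate groups. The other 3 had higher means, but Ly6g and Mpo among them lay below background. Progenitors had 1 of 4 markers higher, and T cells and B cells had 1 of 5 and 1 of 4 lower. The mean level of the mast cell markers was 6.23, 7.34 and 6.65 with CL and 5.44, 4.39 and 4.83 with vehicle. It was highest on CL replicate 2, not on CL replicate 1, where the histone mean was highest. The part of these cells in the histone levels was not tested.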

How the data were processed

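The SVF of gWAT was profiled on 6 arrays, 3 CL and 3 vehicle, grouped by their labels. Nothing given says whether a replicate is 1 mouse or a pool, and p-values measure the spread between arrays. The deposited log2 values were made by the authors with RMA in Affymetrix Expression Console (versions not stated), and a company hybridised and scanned the arrays. Neither the labels nor the methods name a batch or scan date. Of 41345 probe sets, 23521 carry 1 gene symbol, 1820 several and 16004 none. For the 1082 genes with several probe sets, the one with the highest mean was used, which gave 22180 genes, of which 21994 matched the reference table by gene number, the 29 histone genes included. The comparison used two-sided moderated statistics of limma 3.58.1 in R 4.3.3, with lmFit and eBayes and no mean-variance trend. Benjamini-Hochberg adjustment ran over all genes, and 0.05 was the threshold. Intervals are 95% intervals of a single gene. The code was tested on simulated data. Background was the 95th percentile of 1394 receptor genes of smell, and 8797 genes (39.7%) lay below it.

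The members, lists and tests were chosen with earlier results of these data known. Histone genes were named if they were past the threshold, among the 3 highest means of a family, or among the 5 largest differences in each direction above background. Of each list, genes past the threshold and the 2 with the highest means could be named. Slbp and Npat were named for their role. The other histone, variant and marker genes given, and probe sets shared by several genes, were named after their values were seen. Alternatives were the methods' t-test, other moderation, filters, scalings, probe set rules, array weights, blocking on the replicate number, and omitting single arrays. The fit of every probe set, its scalings and the AAACACA motif were added after seeing the data. The number of arrays limits the precision.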

Additional observations from a re-analysis of the deposited data

How the results depend on the processing

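Across 12 named histone genes and up to 19 other settings, 7 genes kept their direction throughout, and only H1f2 was ever past the threshold, by the methods' t-test without adjustment (log2 fold change 1.21), which counted 1 histone gene higher. Adjusted p for H1f2 ranged from 0.0571 to 0.349 over its settings. Over all genes 72 were called, and the number was 2608 by the methods' t-test without adjustment and 0 with it, 153 with a trend, 177 with trend and robust moderation, 161 among genes above the median level, 15 with the replicate block, 0 with every probe set by itself (a setting chosen after seeing the data), and 0 to 31 with 1 array left out (0 without CL replicate 1, 2 or 3, and 21, 31 and 11 without vehicle replicate 1, 2 and 3). Deviations from the group means had correlations of −0.0046, 0.098 and 0.060 between same-numbered arrays, and of −0.10 to 0.048 between others. These cannot settle whether the numbers pair the arrays, since deviations from a mean of 3 are tied to each other. The block called 0 histone genes. Of the genes called, 61.1% were higher as deposited, 65.9% after median centring, 43.9% after quantile normalization and 43.4% after cyclic loess. The H1 median was 0.40 above background, 0.70 above the median level and −0.25 to 0.15 with 1 array left out, and the H2B median was −0.067 to 0.40 with 1 array left out, the lowest being without CL replicate 1 in both. With 1 array left out, log2 fold changes ran from −0.62 to 0.89 for H1f5, −0.056 to 0.66 for H2ac10, −0.27 to 0.28 for H2bc18, −0.066 to 0.58 for H4c9 and −0.015 to 0.16 for Npat. Reversals by scaling were H2bc18 (−0.033 by quantile normalization, −0.024 by cyclic loess) and Npat (−0.023 and −0.0087), and H2ac21 gave 0.14 from its dimmer probe set. The causes were not tested. Rpph1 passed the threshold in 4 settings, with adjusted p from 0.0127 to 0.270 over all of them. With 3 arrays a group and 16 of 29 genes below background, moderate differences could be missed, and H3 could be read only through shared probe sets.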
